A study of Mus musculus with 4 samples.

Results

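The identity of alveolar macrophages (AMs), which live in the airspace of the lung, is set by a small group of transcription factors. Of these, 9 were examined here: Pparg, Rxra, Bhlhe40, Bhlhe41, Spi1, Cebpa, Cebpb, Klf4 and Maf. They were taken by gene symbol from a table of 54532 genes, of which the table itself assigns 1469, all 9 included, to a transcription factor family. The Control group comprised 2 libraries of AMs from female, wild-type mice that carried no tumor, and the Tumor group 2 libraries from female, wild-type mice 2 weeks after they were given 4T1 cells, a murine breast cancer line with a tendency to spread to the lung. Per the methods of the study, wild-type mice were young adults of BALB/c background and 4T1 cells were placed in the mammary fat pad. The study asked how macrophages of the lung change before metastases are visible, and for these genes the comparison asks whether the regulators of AM identity were transcribed at other levels in tumor-bearing mice. Neither the labels nor the methods say whether 1 library stands for 1 mouse or for a pool, so that the p-values measure only the spread between these libraries.

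PPARG is a lipid-activated nuclear receptor that is switched on in fetal monocytes entering the lung, in response to GM-CSF and TGF-beta, and it drives the lipid-handling programme with which AMs clear surfactant. It binds DNA as a pair with the retinoid X receptor, whose alpha form is encoded by Rxra. PU.1, encoded by Spi1, and the C/EBP proteins open macrophage enhancers, BHLHE40 and BHLHE41 are repressors that keep genes of other macrophage types silent and permit self-renewal, and MAF favours a non-dividing state and is low in AMs. KLF4 is a zinc-finger factor of monocytes and macrophages.

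BHLHE40 and BHLHE41 bind the E-box CACGTG, and PPARG and RXR bind repeats of the hexamer AGGTCA, so the stretches before the transcription starts were searched for these letters, on both strands. RefSeq sequences of build GRCm38.p6 were available for 6 of the 9 genes, with 9 starts among them, and 250 bases before each start were read. Bhlhe40, Spi1 and Maf had no such sequence and were not searched. CACGTG lay before the starts of Bhlhe41 and Klf4. It was present in 2 of 9 windows, against 6.02% of 32851 windows of all genes. AGGTCA, searched as a single hexamer and not as a repeat, was present in 3 of 9 windows, against 14% of all windows. These lay before 2 starts of Pparg and 1 start of Rxra. GGAAGT, a core of PU.1 sites, was in 0 of 9 windows against 19.7%, and TTGCNNAA, a form of the C/EBP site, in 1 of 9, before a start of Pparg, against 9.56%. A match describes these letters and is no evidence of binding. The windows of Bhlhe41, Klf4 and Rxra are shown without any annotated exon, with the matches in capitals. They lie at chr6:145865559-145865670 on the minus strand, chr4:55532476-55532725 on the minus strand and chr2:27709042-27709291 on the plus strand. The matches begin 153 bases before the RefSeq start of Bhlhe41, 182 bases before that of Klf4, and 87 and 48 bases before that of Rxra, where the former is on the opposite strand. The stretch of Bhlhe41 has 112 bases, since it ends at an annotated exon, short of the RefSeq start.
Bhlhe41: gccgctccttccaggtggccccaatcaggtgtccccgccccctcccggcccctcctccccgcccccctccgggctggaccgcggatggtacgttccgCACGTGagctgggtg
Klf4: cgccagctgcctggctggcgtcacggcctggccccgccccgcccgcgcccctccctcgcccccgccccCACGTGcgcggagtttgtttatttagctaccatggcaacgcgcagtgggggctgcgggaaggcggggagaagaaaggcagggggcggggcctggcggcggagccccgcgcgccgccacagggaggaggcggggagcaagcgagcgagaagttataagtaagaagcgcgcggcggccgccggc
Rxra: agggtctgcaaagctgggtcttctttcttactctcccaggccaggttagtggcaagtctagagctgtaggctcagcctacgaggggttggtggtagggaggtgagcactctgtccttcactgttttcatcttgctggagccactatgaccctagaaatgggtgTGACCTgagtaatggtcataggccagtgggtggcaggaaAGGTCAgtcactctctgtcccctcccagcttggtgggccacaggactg

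Total counts ranged from 16167147 to 19205737, with neither group the deeper. All 14 AM markers chosen for a check of the label (among them Siglecf, Itgax, Marco, Chil3 and Car4) were detected in each library. Under TMM scaling 13 of them were called lower in Tumor, and the median of their log2 fold changes was -0.47. Transcripts of other cells stood higher in both Tumor libraries. The summed level of 10 neutrophil markers, in counts scaled to a common library total by TMM (CPM), was 48.0 and 48.1 in the Control and 3847 and 3810 CPM in the Tumor libraries. For 5 eosinophil markers it was 0.640 and 0.634 against 2669 and 2629 CPM, and for 10 hepatocyte markers 1.12 and 1.96 against 683.1 and 679.2 CPM. Each of 6 basophil and mast cell markers was called higher. None of these 25 genes was at 0 in a Tumor library, whereas 8 of the 10 hepatocyte, 3 of the 5 eosinophil and 4 of the 10 neutrophil markers had at most 3 counts in each Control library. Markers of further cells were mixed under TMM scaling, with 5 of 8 monocyte markers called higher and 2 lower, 4 of 8 dendritic cell markers higher and 2 lower, 3 of 6 T cell markers higher and 1 lower, and 2 of 4 tested endothelial markers higher and 0 lower, against 29% higher and 24.8% lower of all tested genes. The sum of the monocyte list was mostly Chil3, also an AM marker, and that of the T cell list mostly Cd2, and both of these genes were among those called lower under TMM scaling, though not with scaling on the AM markers. Itgam, which encodes CD11b, absent from the surface of the AMs that the study stained, had 21 and 18 counts in the Control and 2258 and 2618 in the Tumor libraries. In bulk RNA a smaller share of AMs and less RNA of a gene per AM cannot be told apart, and granulocytes and hepatocytes also use some of the 9 factors (Spi1 and Cebpb in neutrophils, Cebpa, Cebpb and Rxra in liver). Their part in the values below was not tested.

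For this reason fold changes are given under TMM scaling, which takes most genes as not changing, and also with libraries scaled on the 14 AM markers, which hold none of the 9 genes. The latter moved the median over all tested genes from 0.02 to 0.51 on the log2 scale and moved each of the 9 genes upward by about the same amount. It sets the typical AM marker to no change, and so gives the change of a factor relative to that of these markers. Under TMM scaling the log2 fold changes of the markers ranged from -2.13 (Fabp4) to -0.04 (Ear2). Whether other cells add to the counts of any of these markers was not tested.

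The 9 genes spanned a wide range of levels. Per length (FPKM, from TMM-scaled counts and the gene length in the table), the Control order was Cebpb at 393.2 ± 16.4, Bhlhe40 at 212.7 ± 1.43, Spi1 at 187.8 ± 4.28, Cebpa at 141.2 ± 1.71, Pparg at 75.7 ± 1.64, Klf4 at 60.3 ± 0.0577, Rxra at 46.3 ± 1.39, Bhlhe41 at 19.1 ± 0.314 and Maf at 0.240 ± 0.0355 (SD, n = 2). No neighbours in this order had overlapping libraries. In the Tumor libraries Cebpb was again first at 494.9 ± 4.65 FPKM, followed by Cebpa at 178.8 ± 1.93, Spi1 at 171.3 ± 4.15 and Bhlhe40 at 167.5 ± 0.383 (SD, n = 2), of which Spi1 and Bhlhe40 differed by less than 1 SD of Spi1. Klf4 at 81.1 ± 2.94 FPKM then stood above Pparg at 65.1 ± 1.23, while Rxra, Bhlhe41 and Maf remained the lowest. The places of Cebpa and of Klf4 in the Tumor order rest on the length used. With the longest annotated transcript Bhlhe40 was at 253.1, Spi1 at 227.0 and Cebpa at 179.5 FPKM, and Pparg at 90.5 stood above Klf4 at 81.6 FPKM.

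Ranks among the 1469 annotated transcription factors, by counts per length within a library, need no scaling. Cebpb ranked 2 in 3 libraries and 1 in Tumor replicate 2. Bhlhe40 moved from ranks 8 and 7 in the Control to 12 in both Tumor libraries, and Cebpa from 13 and 12 to 8 in both. Klf4 went from 31 in both Control libraries to 26 and 25, whereas Spi1 stayed between 9 and 11 and Pparg between 25 and 28. Bhlhe41 moved furthest among the 8 abundant genes, from ranks 97 and 92 to 195 and 213. Maf lay between 724 and 760. Together, the 9 genes held 7.20% and 7.37% of the counts of all annotated transcription factors in the Control and 6.97% and 7.05% in the Tumor libraries.

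In the comparison of the groups with edgeR's quasi-likelihood test, 8 of the 9 genes had an adjusted p under 0.05 (Benjamini-Hochberg over all tested genes), where 53.8% of the 14256 tested genes and 57.6% of the 823 tested transcription factors did. Under TMM scaling 4 were higher in the Tumor libraries (Cebpa, Cebpb, Rxra and Klf4; background 29% of all tested genes and 30.3% of the transcription factors) and 4 were lower (Pparg, Bhlhe40, Bhlhe41 and Spi1; background 24.8% and 27.3%), while with scaling on the AM markers 7 were higher and Bhlhe41 alone was lower, where 69.8% of all tested genes were called higher and 5.06% lower. Maf passed the threshold under neither. The changes were small for the most part. Under TMM scaling Bhlhe41 was the 1 gene of the 9 called with a change of 1.5-fold or more, against 25.3% of all tested genes and 27.9% of the transcription factors, and in its direction, lower in Tumor, 7.92% of all tested genes. With scaling on the AM markers Cebpa, Cebpb, Rxra and Klf4 reached 1.5-fold and Bhlhe41 did not, a count of 4 of 9 against 42.5% of all tested genes. CPM values of the groups did not overlap for the 8 genes called, as was so for 75.1% of all tested genes. The median absolute log2 fold change of the 9 genes was 0.33, against 0.32 over all tested genes and 0.35 over the tested transcription factors.

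**Figure D1:**
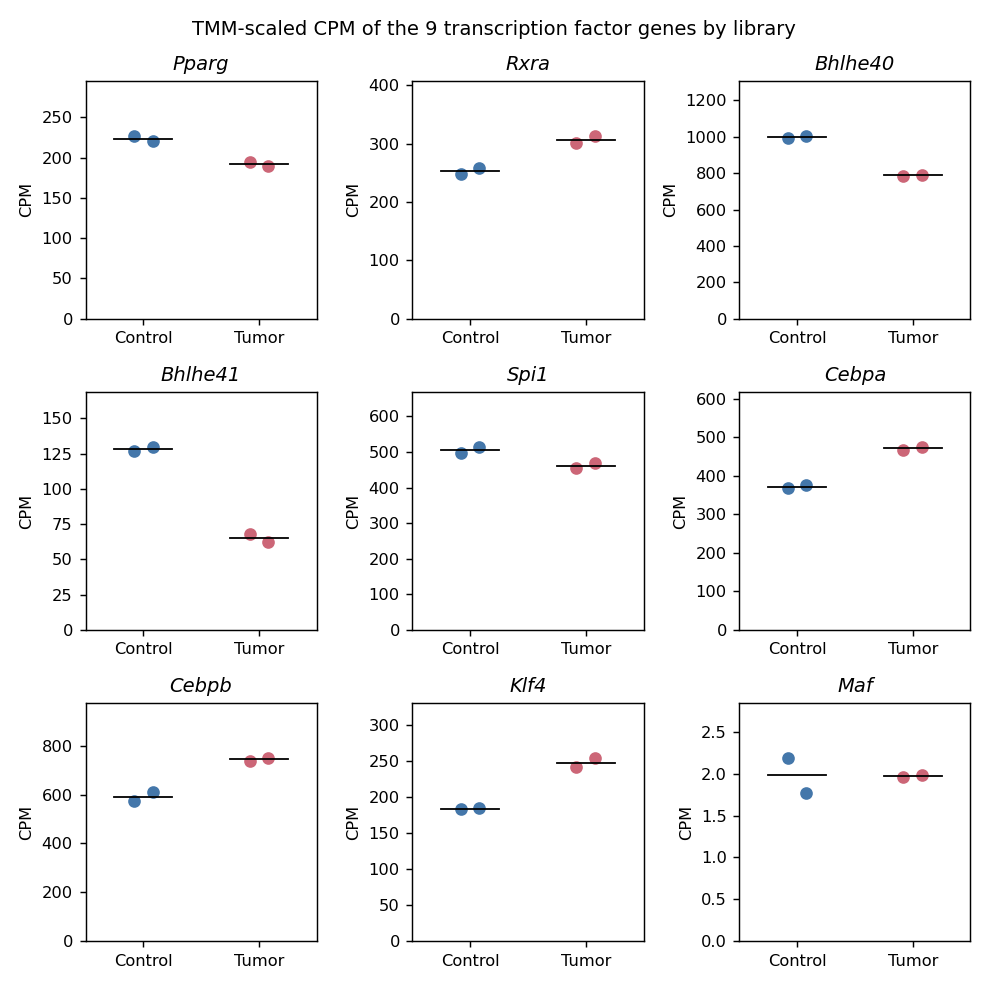
TMM-scaled CPM (y axis, from 0) of each gene in the 2 Control and 2 Tumor libraries (points), with the group mean as a line. Bhlhe41 shows the widest gap relative to its level, at about 128.1 against 64.9 CPM, and the points of Maf overlap between groups; the lower position of Pparg, Bhlhe40 and Spi1 in the Tumor libraries reverses when libraries are scaled on AM markers.

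**Figure D2:**
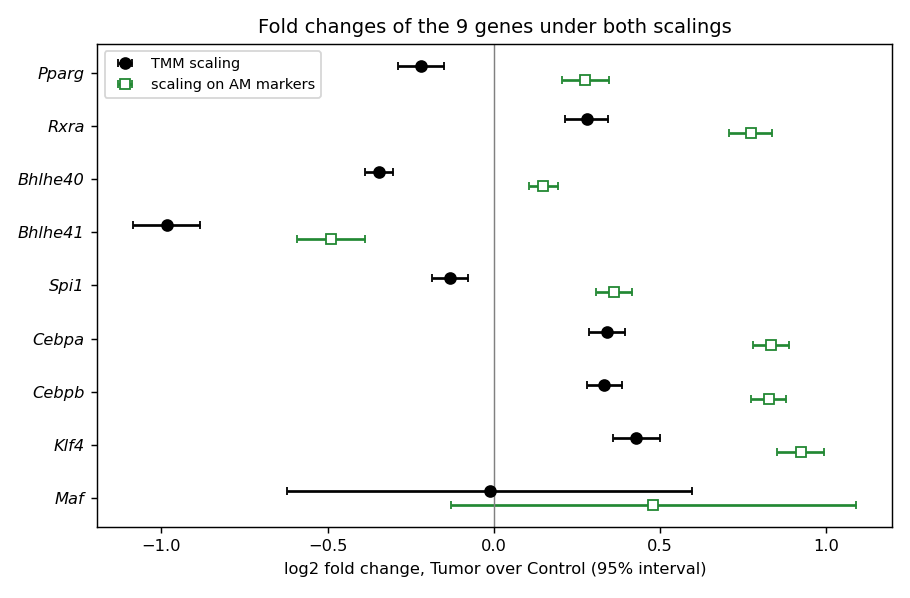
Log2 fold change of Tumor over Control (x axis) of each gene with its 95% interval from the edgeR fit, under TMM scaling (filled circles) and with libraries scaled on 14 AM markers (open squares). Pparg, Bhlhe40 and Spi1 lie below 0 in the former and above 0 in the latter, Bhlhe41 lies below 0 in both, and Cebpa, Cebpb, Rxra and Klf4 lie above 0 in both.

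Pparg (ENSMUSG00000000440, chromosome 6, 115360951 to 115490399, plus strand) was measured at 226.9 and 220.1 CPM in the Control libraries and at 194.8 and 189.7 CPM in the Tumor libraries. The Tumor libraries were the lower on this scale, without overlap, by 14.0% of the Control mean. The log2 fold change was -0.22 ± 0.0337 (SE; 95% interval -0.29 to -0.15) under TMM scaling with an edgeR adjusted p of 3.29e-06, but 0.28 ± 0.0345 when scaled on the AM markers, so that relative to the typical AM marker its fold change was positive. Rxra (ENSMUSG00000015846, chromosome 2, 27676440 to 27762957, plus strand), the partner of PPARG, was at 247.6 and 258.3 CPM in the Control and at 300.4 and 313.2 CPM in the Tumor libraries. Both Tumor libraries were above both Control libraries. Rxra rose by 0.28 ± 0.0317 on the log2 scale (SE, edgeR adjusted p = 1.68e-08), and by 0.77 with scaling on the AM markers. The receptor and its partner thus differed in the sign of their change under TMM scaling and in its size under the other.

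Bhlhe40 and Bhlhe41 encode closely related repressors and are the pair of E-box binding factors by which AMs differ from many other macrophages. Bhlhe40 (ENSMUSG00000030103, chromosome 6, 108660629 to 108666925, plus strand) had 995.9 and 1005 CPM in the Control and 786.7 and 789.2 CPM in the Tumor libraries. The libraries of a group differed by at most 0.950% of their mean, and the groups did not overlap. The log2 fold change of Bhlhe40 was -0.34 ± 0.0207 (SE; 95% interval -0.39 to -0.30; edgeR adjusted p = 3.13e-14) under TMM scaling and 0.15 ± 0.0214 with scaling on the AM markers. Bhlhe41 (ENSMUSG00000030256, chromosome 6, 145858243 to 145865558, minus strand) had 126.7 and 129.6 CPM in the Control and 67.6 and 62.1 CPM in the Tumor libraries. Its Tumor level was 0.506 of the Control level. Bhlhe41 fell by 0.98 ± 0.0491 on the log2 scale (SE; 95% interval -1.08 to -0.88; edgeR adjusted p = 4.50e-16), and by 0.49 with scaling on the AM markers, the single member of the 9 that was called lower under both. A gene of uncertain status on the opposite strand of the same locus, Gm43909, had 141 and 79 counts in the Control and 30 and 29 in the Tumor libraries, and whether reads were counted by strand is not given in the sources used here.

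Spi1 (ENSMUSG00000002111, chromosome 2, 91082390 to 91115756, plus strand), which encodes PU.1, a factor that all myeloid cells need, had the smallest change among the 8 genes called under TMM scaling, though not with scaling on the AM markers. It was at 497.8 and 514.2 CPM in the Control and at 453.8 and 469.6 CPM in the Tumor libraries. The groups did not overlap, and the libraries within a group differed by 3.23% of the mean in the Control and 3.42% in the Tumor group. The log2 fold change of Spi1 was -0.13 ± 0.0264 (SE; edgeR adjusted p = 0.000117) under TMM scaling and 0.36 ± 0.0266 with scaling on the AM markers.

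Cebpa and Cebpb encode C/EBP proteins that act with PU.1 in myeloid cells. Cebpa (ENSMUSG00000034957, chromosome 7, 35119293 to 35121928, plus strand) was at 369.1 and 375.5 CPM in the Control and 467.8 and 475.0 CPM in the Tumor libraries. Cebpb (ENSMUSG00000056501, chromosome 2, 167688915 to 167690418, plus strand) was at 573.9 and 608.8 CPM in the Control and 739.4 and 749.3 CPM in the Tumor libraries. Both genes were higher in each Tumor library than in either Control library. Cebpa rose by 0.34 ± 0.0262 and Cebpb by 0.33 ± 0.0254 on the log2 scale (SE; edgeR adjusted p = 6.77e-12 and 6.08e-12), with 95% intervals of 0.29 to 0.39 and 0.28 to 0.39. With scaling on the AM markers the rises were 0.84 and 0.83. The locus of Cebpb overlaps Tmem189 on the opposite strand, which had between 1950 and 2759 counts, so reads could be shared or left out there.

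Klf4 (ENSMUSG00000003032, chromosome 4, 55527143 to 55532466, minus strand) had the largest rise of the 9 genes. It was at 183.6 and 183.9 CPM in the Control and at 241.0 and 253.6 CPM in the Tumor libraries. The Tumor libraries were clearly apart from the Control libraries, which hardly differed. Klf4 rose by 0.43 ± 0.0341 on the log2 scale (SE; 95% interval 0.36 to 0.50; edgeR adjusted p = 1.34e-11), and by 0.92 with scaling on the AM markers. Maf (ENSMUSG00000055435, chromosome 8, 115682942 to 115707794, minus strand) was the sole member of low level, with 41 and 28 counts in the Control and 34 and 39 in the Tumor libraries. These correspond to 2.19 and 1.77 CPM against 1.96 and 1.99 CPM, and the groups overlapped. The log2 fold change of Maf was -0.01 ± 0.297 (SE; 95% interval -0.62 to 0.60; edgeR adjusted p = 0.978), or 0.48 with scaling on the AM markers (edgeR adjusted p = 0.146). At this depth a change of Maf within that interval was not detectable.

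The ratio of 2 genes within a library does not depend on scaling, and ratios of FPKM were therefore read for pairs of members. Bhlhe40 over Bhlhe41 was 11.2 and 11.1 in the Control and 16.6 and 18.1 in the Tumor libraries, a Tumor mean of 1.56 times the Control mean. Rxra over Pparg was 0.590 and 0.635 in the Control and 0.834 and 0.893 in the Tumor libraries, with means 1.41 times apart. Cebpb over Pparg was 4.97 and 5.43 in the Control against 7.45 and 7.76, with means 1.46 times apart. In these 3 pairs the groups did not overlap, where the CPM values of 75.1% of all tested genes, taken singly, did not either. By contrast, Cebpb over Cebpa was 2.72 and 2.84 in the Control and 2.77 and 2.76 in the Tumor libraries, so that the groups overlapped and the means differed by less than the Control SD of 0.0828. Maf over Pparg was 0.00345 and 0.00289 against 0.00361 and 0.00375, where the few counts of Maf set the precision. With 2 libraries per group an exact permutation test cannot give a p under 0.33, and no test was made of the ratios. They need no scaling but can still depend on the mix of cells, whose part was not tested.

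**Figure D3:**
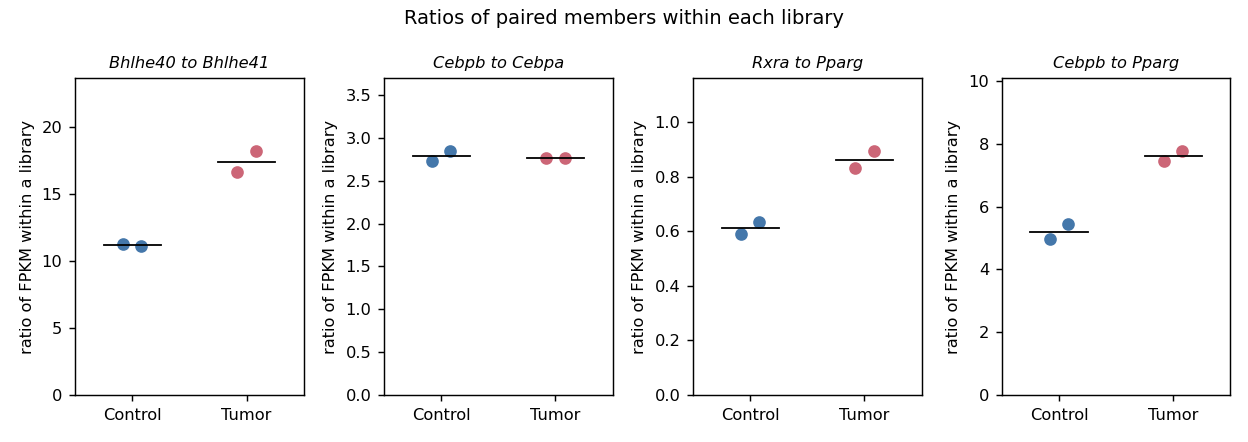
Ratio of the FPKM of 2 genes within each library (y axis, from 0; points are libraries, lines are group means), for 4 pairs. Bhlhe40 to Bhlhe41, Rxra to Pparg and Cebpb to Pparg are higher in both Tumor libraries, and Cebpb to Cebpa overlaps between groups.

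The relatives of each factor were then read from the same fit. In the PPAR and RXR family 4 of 6 genes were tested. Ppard changed with Pparg, with a log2 fold change of -0.20 ± 0.0703 (SE; edgeR adjusted p = 0.0169) under TMM scaling and 0.29 with scaling on the AM markers, and it was not called without Control replicate 1 or without Tumor replicate 2. Rxrb, the RXR form found in nearly all tissues, rose with Rxra, by 0.37 ± 0.0666 (SE; edgeR adjusted p = 2.99e-05). Ppara had 1 and 0 counts in the Control and 5 in both Tumor libraries, and Rxrg had at most 3 counts, too few for the filter.

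All 6 C/EBP family genes were tested, of which 5 were higher and Ddit3, a stress-induced member, did not pass under TMM scaling, where 29% of all tested genes were higher. With scaling on the AM markers all 6 were higher, against 69.8%. Cebpd, an acute-phase member, rose from 15.3 ± 0.555 to 30.6 ± 2.24 CPM (SD, n = 2), or by 0.99 on the log2 scale. Cebpe, a factor of granulocyte maturation, had 7 and 1 counts in the Control and 470 and 521 in the Tumor libraries. Its rise stood beside those of the granulocyte markers given above and of Gata1, a lineage factor of eosinophils and basophils. Gata1 was at 0 counts in both Control libraries and had 219 and 226 counts in Tumor, which is at least 60.6-fold higher, taking 3 counts per library as the floor. Cebpg rose by 0.22. The medians of the log2 fold changes were 0.34 in the C/EBP family and 0.02 over all tested genes.

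Of 17 KLF genes 13 were tested, and each of them was called under TMM scaling, 10 higher and 3 lower, with a median log2 fold change of 0.59, where 29% and 24.8% of all tested genes were called. With scaling on the AM markers 11 were called higher and 1, Klf16, lower, against 69.8% and 5.06%. Klf2, which keeps myeloid cells and lymphocytes quiescent, rose by 1.77 ± 0.0458 on the log2 scale (SE), from 50.9 ± 1.69 to 173.9 ± 1.22 CPM (SD, n = 2). Klf11 rose by 1.66 and Klf7 by 1.09. Klf5, with 4 and 6 counts in the Control and 140 and 169 in the Tumor libraries, rose by 4.82 ± 0.309 (SE). Klf15 was at 0 in the Control and at 22 and 14 counts in Tumor, which is at least 3.75-fold higher. Klf6, the most abundant of the family by count, rose by 0.27, while Klf16 fell by 0.87. Klf4 was therefore 1 of 10 KLF genes that were higher, and 8 of the other 9 had larger changes.

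In the MAF family 5 of 7 genes were tested and 1 was called under TMM scaling, Maff, a small MAF protein without an activation domain, which fell from 362.0 ± 3.92 to 234.0 ± 8.14 CPM (SD, n = 2), by 0.63 on the log2 scale and by 0.13 with scaling on the AM markers. Of the relatives of Spi1, Spib was at 18 to 35 counts and did not pass. Spic, a factor of iron-recycling red pulp macrophages, had 12 and 15 counts in the Control and 2 and 0 in the Tumor libraries, and it was not called without Control replicate 2.

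**Figure D4:**
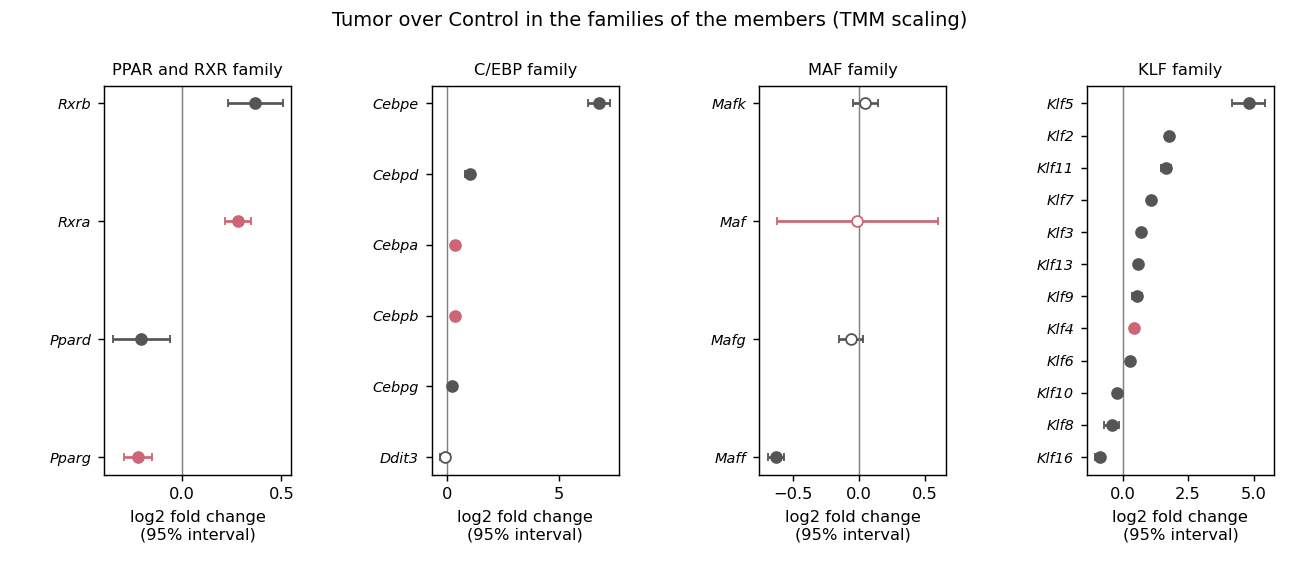
Log2 fold change of Tumor over Control (x axis, TMM scaling, with 95% intervals) for the tested genes reported here of 4 families that were above 3 counts in at least 1 library of each group; Pparg, Rxra, Cebpa, Cebpb, Maf and Klf4 are in red, and open points did not pass the edgeR threshold. The 3 panels for C/EBP, MAF and PPAR and RXR genes show 5, 0 and 2 genes called higher, and all genes below 0 other than Klf16 and Maff lie above 0 with scaling on the AM markers.

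Genes that PPARG is known to induce were read beside Pparg. All 12 were tested and all 12 were called lower in Tumor under TMM scaling (background 24.8%). With total counts as library sizes, or with at least 10 counts in every library, 11 were called lower. The list was chosen with earlier results of these data known, so this share is a description. The median log2 fold change of the 12 was -0.43 under TMM scaling, close to the median of the AM markers. Fabp4, Lpl and Cidec are in both lists, so these 3 targets also take part in the scaling on the AM markers. With that scaling 4 of the 12 were lower, 5 were higher (Cidec, Plin2, Acadvl, Cpt1a and Abcg1) and 3 were not called, where 5.06% and 69.8% of all tested genes were lower and higher. The 4 genes lower under both were Fabp4, Hilpda, Lpl and Pdk4. Fabp4, which encodes a fatty acid carrier, had a log2 fold change of -2.13 ± 0.129 (SE; edgeR adjusted p = 3.54e-14), from 25.3 ± 2.50 to 5.79 ± 0.472 CPM (SD, n = 2). Lpl, the lipase that releases fatty acids from lipoproteins, decreased from 3302 ± 28.3 to 1551 ± 27.5 CPM. Hilpda, an inhibitor of lipolysis on lipid droplets, fell by 1.26 and Pdk4, a brake on glucose oxidation, by 0.98 on the log2 scale. Abcg1, which exports cholesterol, changed least, at -0.05 ± 0.0188 (SE; edgeR adjusted p = 0.0356), and 0.45 with scaling on the AM markers. The fold changes of the targets thus spanned a wide range, and 10 of 12 had a lower fold change than Pparg itself.

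**Figure D5:**
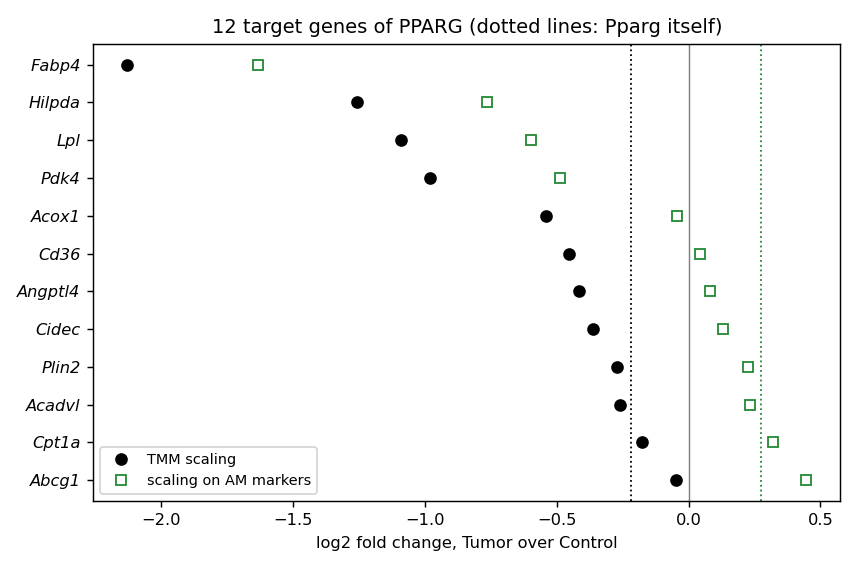
Log2 fold change of Tumor over Control (x axis) of 12 genes known to be induced by PPARG, under TMM scaling (filled) and with libraries scaled on AM markers (open); dotted lines give Pparg under each scaling. All 12 are below 0 in the former, and 4, from Fabp4 to Pdk4, are called lower in both.

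Among 12 coregulators of nuclear receptors, 11 were tested and all 11 were called, 6 higher and 5 lower under TMM scaling (all tested genes 29% and 24.8%), or 8 higher and 1 lower with scaling on the AM markers (69.8% and 5.06%). The corepressor gene Ncor1 rose by 0.31 ± 0.0297 on the log2 scale (SE). Among coactivators Ncoa3 rose by 0.65, Crebbp by 0.51 and Ep300 by 0.42, and Med1, a Mediator subunit that contacts PPARG, had a log2 fold change of -0.54, or -0.05 and not called with scaling on the AM markers.

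Of 10 genes for signals that induce or sustain Pparg, 5 were higher and 4 were lower under TMM scaling (all tested genes 29% and 24.8%), and 9 were higher and 0 lower with scaling on the AM markers (69.8% and 5.06%). The receptor genes Csf2rb and Csf2ra for GM-CSF and Tgfbr2 for TGF-beta had log2 fold changes of -0.49, -0.37 and -0.27 under TMM scaling, whereas with scaling on the AM markers Csf2rb was not called and Csf2ra and Tgfbr2 were at 0.13 and 0.22. Il4ra, a receptor through which IL-4 and IL-13 raise Pparg in macrophages, rose by 0.66 ± 0.0360 (SE). Smad3, a transducer of TGF-beta, had 21 counts in each Control library and 331 and 394 in the Tumor libraries.

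Of 12 genes known to depend on PU.1 all were called, 7 higher and 5 lower under TMM scaling (all tested genes 29% and 24.8%), and 11 higher and 1 lower with scaling on the AM markers (69.8% and 5.06%). The largest rises were those of Itgam, at 6.86 ± 0.104, and of Csf3r, the G-CSF receptor gene, at 3.32 ± 0.0331 (SE), both of which are abundant in neutrophils. Ncf4, a subunit of the phagocyte oxidase, rose by 1.18, whereas Cybb, the catalytic subunit of the same enzyme, fell by 0.70, and was the gene lower under both scalings. Of 8 genes tied to large MAF factors, 7 were tested, 4 were lower and 1 was higher under either scaling (all tested genes 24.8% and 29% under TMM scaling, and 5.06% and 69.8% with scaling on the AM markers). Cd163, a haemoglobin scavenger receptor, had 122 and 87 counts in the Control and 22 and 31 in the Tumor libraries, and C1qb, C1qc and C1qa, the complement C1q chains, fell by 1.27, 1.09 and 0.87 on the log2 scale. Il10 had 54 and 28 counts against 28 and 33 and did not pass (edgeR adjusted p = 0.171).

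Further regulators of AMs outside the 9 genes were called in 11 of 16 cases, 6 higher and 5 lower under TMM scaling, or 13 higher and 1 lower with scaling on the AM markers (all tested genes 69.8% and 5.06%). Under TMM scaling 57.6% of the tested transcription factors were called. Egr2, a zinc-finger factor on which AM identity also relies, averaged 749.6 ± 4.24 CPM without, and 519.2 ± 9.13 CPM with, a tumor (SD, n = 2). Its log2 fold change of -0.53 ± 0.0234 (SE) became -0.04, and was not called, with scaling on the AM markers. Tfe3, a lysosomal regulator, fell by 0.89, or by 0.39 with that scaling, and was the gene of this list that was lower under both. Runx3 rose from 28 and 16 to 356 and 351 counts. Of 10 factors that mark other resident macrophages, 6 were tested, and 5 were lower and 0 higher under TMM scaling (transcription factors 27.3% and 30.3%), or 2 lower (Id3 and Spic) and 1 higher (Mef2c) with scaling on the AM markers (all tested genes 5.06% and 69.8%). The 5 were Id3 and Id1 (Kupffer cells), Nr1h3, Nr4a1 and Spic. Nr1h3 is also in the list of further AM regulators and is counted among the lower genes of both lists. Id3 decreased by 1.61 ± 0.0969 on the log2 scale (SE). Gata6, which defines peritoneal macrophages, and Sall1, which defines microglia, had at most 3 counts in any library.

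With 4 libraries in 2 tight groups, likeness of pattern reflects little more than the size of the change. By Euclidean distance between log2 CPM values centred on each gene's mean over the 4 libraries, the 3 annotated transcription factors nearest to Pparg were Zbtb17, Vezf1 and Zfp110, at distances of 0.0115, 0.0307 and 0.0327, and 41 of 822 lay within 0.1. Nearest to Bhlhe41 were Nfe2l2, the oxidative stress factor NRF2, at 0.0577, Zfp607a at 0.0877 and Foxn2 at 0.0951, with 4 of 822 within 0.1. Nearest to Maf were Zfp810 at 0.0870, Zfp113 at 0.0903 and Repin1 at 0.0936.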

How the data were processed

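RNA-seq was performed by the authors on AMs, with 2 libraries per group assigned from the titles in the labels. Per the methods, total RNA was made into NEBNext Ultra libraries, paired-end HiSeq reads were aligned with HISAT2 2.0.5 (also named in the submitters' processing notes) and assigned to genes by featureCounts. What the authors deposited are whole-number counts, not normalized, beside each gene's length and transcription factor family. The genome build and the strand setting are not given in the sources used here. All 9 members had the coordinates of GENCODE M21, so GRCm38 is given.

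The count test was edgeR 4.0.16 under R 4.3.3. The filter filterByExpr (minimum count of 10) left 14256 genes, and TMM factors lay between 0.977 and 1.02. The quasi-likelihood test had group as its term, with Benjamini-Hochberg adjustment over all tested genes at 0.05. The SE is the fold change over the square root of F. Centred log2 CPM used a prior count of 2. The test was first tested on simulated counts with known changes. FPKM is CPM per kilobase of the listed length. Totals of 16167147 to 19205737 counts set the precision, with 3 counts or fewer taken as the floor.

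Members and gene lists were chosen with earlier results of these data known. Named are the members, up to 4 genes per list with the largest changes, relatives needed for a family, the 3 nearest factors of Pparg, Bhlhe41 and Maf, and the 5 largest rises and falls of called transcription factors whose higher group averaged 100 counts or more. Other genes named (those not tested, not called, shared between lists, differing by scaling or at the loci of members, and Klf7, Klf16, Cebpg, Ncor1, Crebbp, Ep300, Csf2rb, Csf2ra, Tgfbr2, Abcg1, Egr2 and Nr4a1) were chosen after their values were seen. Some genes of the lists are not reported here. Alternatives were other scalings, filters and tests (DESeq2 1.42.0, limma 3.58.1), a replicate block, protein-coding genes alone, and leaving out each library.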

Additional observations from a re-analysis of the deposited data

How the results depend on the processing

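Scaling was the choice on which directions rested. With libraries scaled on the AM markers, 7 of the 9 genes were called higher and 1 lower, the log2 fold changes of Pparg, Bhlhe40 and Spi1 became 0.28, 0.15 and 0.36, and 4 PPARG targets were called lower in place of 12. The share of all called genes that were higher went from 53.9% to 93.2% with that scaling. Requiring a change of at least 1.5-fold left 1 of the 9 genes under TMM scaling and, in a combination added after the data were seen, 4 with scaling on the AM markers, Bhlhe41 not among them. An adjusted p under 0.01 left 8 under TMM scaling. Of the 117 values of the 9 genes under alternatives, the other 114 kept direction and side of the threshold, or, for Maf, remained uncalled. Without each library in turn, in edgeR fits of 3 libraries that assume the lone library to vary like the other group, Bhlhe41 ranged from -1.05 to -0.93, Pparg from -0.26 to -0.20, Spi1 from -0.17 to -0.11, Klf4 from 0.39 to 0.46, and Maf, with few counts, from -0.17 to 0.14. Of 46 counts of genes called higher or lower in a list, 24 moved by over 1.5 times with scaling on the AM markers, 10 with at least 10 counts in every library, 4 with the Wald test of DESeq2, 2 with total counts as library sizes and 1 to 3 without a library. Ppard was not called with total counts, with the Wald test, or without Control replicate 1 or Tumor replicate 2, which left 1 gene of its family lower, and Spic was not called without Control replicate 2, as above. Replicate numbers did not pair the libraries, since deviations of same-numbered libraries correlated at -0.00278 across genes. With the replicate number as a block 8 of the 9 genes were called, as without it, and 7446 genes in all against 7671. Depth limited genes of few counts, among them Maf, Spib and Il10.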

Other observations

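Transcription factors outside the AM set showed the widest changes. Among those that the table annotates, called by edgeR with an average of 100 counts or more in the higher group, the 5 largest rises were those of Gata1, Gata2, Cebpe, Zbtb16 and Hic1. Gata1 and Gata2, factors of eosinophils, basophils and mast cells, were at or under 3 counts in both Control libraries and at least 60.6-fold and 102-fold higher in Tumor, against a floor of 3 counts per library. Zbtb16, a factor of innate-like lymphocytes, had 3 counts in each Control library against 184 and 190 in Tumor, which is at least 50.9-fold higher. Hic1, a transcriptional repressor, had 10 and 6 counts against 393 and 416. The 5 largest falls were those of Hivep3, 9130019O22Rik, Zfp948, Id3 and Zfp422. Hivep3 decreased from 156.0 to 34.7 CPM, a log2 fold change of -2.16 ± 0.0517 (SE), and the other 4 lay between -1.87 and -1.42, each below the change of Bhlhe41.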
